A study of Mus musculus with 2 samples.

Results

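The 6 genes described here, *H2-D1*, *H2-K1*, *B2m*, *Tap1*, *H2-DMa* and *Cd74*, belong to the machinery that displays peptides on the cell surface. They were taken by name, and all 6 had a row in a table of 11691 genes that holds single-cell counts for 2 libraries of mouse hematopoietic cells. *H2-D1* and *H2-K1* encode classical MHC class I heavy chains, *B2m* the light chain that pairs with them, and *Tap1* a subunit of the pump that carries cytosolic peptides into the endoplasmic reticulum. These 4 are called the class I genes below. *Cd74* encodes the invariant chain, which holds the class II groove closed on the way to the endosome, and *H2-DMa* encodes a chain of H2-DM, which exchanges the remnant of the invariant chain for antigenic peptide. These are called the class II genes.

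Most nucleated cells carry MHC class I and show on it samples of the proteins they make, which cytotoxic T cells read. MHC class II shows peptides from material taken up by the cell to helper T cells. It is found mainly on dendritic cells, B cells and macrophages, whereas mast cells at rest carry little of it.

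Both libraries came from C57/BL6 concepti of E8.5, staged at 5 to 7 somite pairs, from which the embryo proper and the yolk sac were separated and cultured apart as explants at the air-liquid interface. All explants received SCF, IL-3 and FLT3 ligand, each at 100 ng/ml, for 10 days, and were then dissociated with collagenase and sorted for CD31+CD45+c-Kit+CD41- cells. Em-Ex denotes the library from intraembryonic tissues and YS-Ex the library from yolk sacs. Each pooled the explants of many concepti, and there was 1 library per tissue. A difference between the tissues therefore cannot be told apart from a difference between these libraries, and no p-value can be given.

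The count table held 3504 Em-Ex and 3037 YS-Ex barcodes, where the labels state a recovery of 3000 to 3500 cells per sample, and 3071 and 2087 cells passed the limits on genes and mitochondrial counts that the study's methods state. The study's own cell numbers equal all barcodes of the table, so the cells described here are a smaller set than its own. The cells held 4120 to 38114 unique molecular identifiers (UMIs) in Em-Ex and 3302 to 34107 in YS-Ex, with medians of 12341 and 11729. Of the barcodes, 35 occurred in both libraries, 14 of them among the 141 *Cpa3*-low cells of YS-Ex described below, and without their cells the log2 ratios of the 6 genes between the groups compared below stayed within their counting intervals. Transcripts of the sorted proteins were found in both libraries, with *Kit* at 262 UMIs per 1000000 (CPM) among Em-Ex cells and 963 CPM among YS-Ex cells, and *Ptprc*, which encodes CD45, at 47.4 and 106 CPM. *Itga2b*, which encodes CD41, the protein selected against, was at 16.4 and 14.1 CPM. The 11 mast cell markers other than *Cpa3*, the gene that divides the cells below, summed to 29925 CPM in the *Cpa3*-high cells of Em-Ex and 27697 CPM in those of YS-Ex.

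*Cpa3* encodes a carboxypeptidase stored in mast cell granules. A cell was called *Cpa3*-high at 40 or more *Cpa3* UMIs per 10000 of its UMIs, and *Cpa3*-low otherwise. In Em-Ex, 2200 cells (71.6%, 95% exact binomial interval 70.0–73.2%) were *Cpa3*-high and 871 were *Cpa3*-low. In YS-Ex, 1946 cells were *Cpa3*-high and 141 (6.76%, 5.72–7.92%) were *Cpa3*-low. The *Cpa3*-low cells were deeper in Em-Ex, with a median of 16935 UMIs against 11245.5 in the *Cpa3*-high cells, and shallower in YS-Ex, with 10227 against 11809.

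The *Cpa3*-low cells were of mixed makeup and differed between the libraries. The 11 mast cell markers other than *Cpa3* still summed to 5379 CPM in those of Em-Ex and 11215 CPM in those of YS-Ex. Macrophage markers (11 of 12 in the table) summed to 499 CPM in the *Cpa3*-low cells of Em-Ex and 1121 CPM in those of YS-Ex, against 144 and 53.6 CPM in the *Cpa3*-high cells, and none of the 11 was at 0 in any group. Dendritic cell markers (7 of 12 in the table) summed to 177 CPM in the *Cpa3*-low cells of Em-Ex and 45.9 CPM in those of YS-Ex. They summed to 34.9 and 41.1 CPM in the *Cpa3*-high cells. In YS-Ex 5 of the 7 were at 0 over all cells. A gene is listed at 0 in a library when fewer than 30 of its barcodes hold UMIs of that gene. Sums with such markers therefore do not compare the same genes between the libraries. Neutrophil progenitor markers (6 of 10) summed to 1138 and 4299.6 CPM in the *Cpa3*-low cells and to 14.8 and 7.29 CPM in the *Cpa3*-high cells. In YS-Ex 2 of the 6 were at 0, and *S100a8* and *S100a9* led the sum. Erythroid markers (8 of 8) summed to 2140 and 1883 CPM in the *Cpa3*-low cells of Em-Ex and YS-Ex, against 106 and 227 CPM in the *Cpa3*-high cells, and 2 of the 8 were at 0 in YS-Ex. Mitosis genes summed to 992 and 1206 CPM, against 462 and 414 CPM. The part of clusters 6, 10, 11 and 12 in the differences between *Cpa3*-high and *Cpa3*-low cells is given below. The clusters led by cell division genes were not left out, so the part of dividing cells was not tested.

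In the mm10 (GRCm38) build, 4 of the 6 genes lie within the MHC on chromosome 17. By the GENCODE M21 annotation *H2-K1* spans chr17:33996017-34000347 on the minus strand, *H2-DMa* chr17:34119541-34139101, *Tap1* chr17:34187553-34197225 and *H2-D1* chr17:35262730-35267499, all 3 on the plus strand. *B2m* lies outside the MHC, at chr2:122147686-122153083 on the plus strand, and so does *Cd74*, at chr18:60803848-60812652. *Tap1* overlaps *Psmb9*, *B2m* overlaps *Patl2* and *H2-DMa* overlaps *Brd2*, each on the other strand. On the same strand *H2-DMa* overlaps *CR974462.3* and *Cd74* overlaps *Mir5107*, which counting by strand could not separate.

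The class I heavy chains have near copies, which bears on how far their counts can be trusted. Of the 50-base words in the last 500 bases of its transcripts, *H2-D1* shared 9.53% with other genes and *H2-K1* 0.443%, and *B2m*, *Tap1*, *H2-DMa* and *Cd74* shared none. *H2-T22*, a nonclassical class I gene, shared 59.2%, so its level is uncertain.

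The promoters of *H2-D1*, *H2-K1* and *B2m*, the 3 most abundant of the 6 genes, held the same pair of short motifs at the same distance. The pair is TGACG, the core of a cAMP response element, followed by ATTGG, which is a CCAAT box read on the other strand, and 20 bases lie between them. RefSeq promoters of GRCm38.p6 were searched over the 250 bases before each start, on both strands, and 5 of the 6 genes, all but *Cd74*, had an entry. This spacing was found in 30 of 32851 promoters, or 0.0913%. The stretches are shown 5′ to 3′ with both motifs in capitals. That of *H2-D1* begins 101 bases before the start, at chr17:35262993-35263022, and lies within an exon of *H2-D1* in the GENCODE annotation. That of *H2-K1* begins 41 bases before the nearer of its starts, at chr17:34000359-34000388 on the minus strand, and that of *B2m* 78 bases before it, at chr2:122147609-122147638. *H2-Q7*, a nonclassical class I gene chosen for comparison after the sequences were seen, held the motifs with 19 bases between them, at chr17:35439091-35439120, a spacing found in 12 promoters.
H2-D1: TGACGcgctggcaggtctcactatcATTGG
H2-K1: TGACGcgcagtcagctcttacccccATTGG
B2m: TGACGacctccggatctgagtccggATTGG
H2-Q7: TGACGtgtaacagttctcacccctATTGGg

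The heavy chain promoters further held a 10-base NF-kB-type motif, shown in capitals in the lines here, which was searched on both strands and found in 28 of 32851 promoters, or 0.0852%. It begins, from the same starts, 171 bases upstream in *H2-D1*, within chr17:35262913-35262942, 111 bases in *H2-K1*, within chr17:34000439-34000468 on the minus strand, and 133 bases in *H2-Q7*, within chr17:35439012-35439041. Its neighbouring bases are shown with it, and the stretch of *H2-D1* overlaps an exon of *H2-D1* in the GENCODE annotation.
H2-D1: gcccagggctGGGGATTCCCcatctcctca
H2-K1: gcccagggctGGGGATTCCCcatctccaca
H2-Q7: gcccatggctGGGGATTCCCatctccccag
A match is a run of letters in a window and was not tested as a binding site. An interferon-type motif (GAAA, any 2 bases, GAAA), searched on both strands and present in 2.98% of promoters, was found for *B2m* and not in the windows of *H2-D1*, *H2-K1*, *Tap1* or *H2-DMa*.

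The level of a gene in a group of cells is given in CPM, from its UMIs summed over the cells and the total UMIs of those cells, with a 95% exact Poisson interval in parentheses. Intervals of levels and of ratios cover counting error only, not the spread between cultures. A UMI counts a tagged transcript, and values were not divided by gene length. A lower level in a group cannot be told apart from fewer cells that use the gene, except where the share of cells is given.

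*H2-D1* was lower in the *Cpa3*-low cells of Em-Ex and level in those of YS-Ex. It was at 600.6 CPM (591–610) in *Cpa3*-high and 410 CPM (400–421) in *Cpa3*-low cells of Em-Ex, and at 539 CPM (530–548) and 548 CPM (514–583) in those of YS-Ex. The log2 ratio of *Cpa3*-low to *Cpa3*-high cells was −0.55 (−0.59 to −0.51) in Em-Ex and 0.02 (−0.07 to 0.12) in YS-Ex. Over 14 alternatives, 4 of them chosen after seeing the data, it ran in Em-Ex from −0.79 under median-of-ratios scaling, which centers the genes at no change, to −0.15 without cluster 6 of the clustering given below, and in YS-Ex from −0.43 without cluster 10 to 0.20 at a *Cpa3* limit of 20. The cells themselves spread more widely on the *Cpa3*-low side. The median *Cpa3*-low cell of Em-Ex was at 327 CPM and the 95th percentile at 1143 CPM, against 563 and 1307 CPM in *Cpa3*-high cells. In YS-Ex the median was 360 CPM and the 95th percentile reached 1705 CPM in *Cpa3*-low cells, against 499.6 and 1137 CPM in *Cpa3*-high cells, so equal pooled levels stood over unequal distributions.

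*H2-K1*, the other classical heavy chain, went the other way from *H2-D1* in Em-Ex. It was at 193 CPM (187–198) in *Cpa3*-high and 239 CPM (231–247) in *Cpa3*-low cells of Em-Ex, a log2 ratio of 0.31 (0.25 to 0.37). This ratio was 0.07 under median-of-ratios scaling, 0.12 at a *Cpa3* limit of 80 and −0.08 (−0.19 to 0.03) without clusters 6, 10, 11 and 12. In YS-Ex it was at 175 CPM (170–180) and 237 CPM (215–261), a log2 ratio of 0.44 (0.29 to 0.59) that was −0.03 without cluster 10. The median cell hardly moved, at 150.4 and 150.2 CPM in Em-Ex and at 142 CPM in both groups of YS-Ex, which places the gap in the upper part of the distribution. As a result the balance between the heavy chains shifted with *Cpa3*. There were 3.12 *H2-D1* UMIs per *H2-K1* UMI (3.02–3.22) in *Cpa3*-high and 1.72 (1.65–1.79) in *Cpa3*-low cells of Em-Ex, and 3.09 (2.98–3.19) and 2.31 (2.06–2.59) in those of YS-Ex. The *Cpa3*-high cells of the libraries had ratios whose intervals overlap.

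*B2m* was the most abundant of the 6 genes and was found in 98.6% to 99.95% of the cells of each group. It was at 1242 CPM (1229–1255) in *Cpa3*-high and 1387 CPM (1368–1406) in *Cpa3*-low cells of Em-Ex, a log2 ratio of 0.16 (0.13 to 0.18), but this direction turned to −0.08 under median-of-ratios scaling. That scaling shifts all Em-Ex ratios of *Cpa3*-low to *Cpa3*-high cells down by 0.24, which is the shift of the median gene, and the 11 mast cell markers other than *Cpa3* summed to 5379 CPM in the *Cpa3*-low cells against 29925 CPM in the *Cpa3*-high cells. In YS-Ex *B2m* was at 1178 CPM (1165–1191) and 1652 CPM (1593–1713), a log2 ratio of 0.49 (0.43 to 0.54). The medians over cells lay close together, from 1043 to 1137 CPM over the 4 groups. The 95th percentile stood at 9375 CPM in the *Cpa3*-low cells of YS-Ex, at 3906 CPM in those of Em-Ex and near 2860 CPM in the *Cpa3*-high cells of both libraries. A minority of *Cpa3*-low cells thus held very high *B2m*, most of all in YS-Ex. *H2-D1* and *H2-K1* together came to 63.9 and 60.6 UMIs per 100 *B2m* UMIs in the *Cpa3*-high cells of Em-Ex and YS-Ex, and to 46.8 and 47.5 in the *Cpa3*-low cells.

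*Tap1* had the highest ratio of the 4 class I genes in both libraries. It was at 11.3 CPM (10.097–12.7) in *Cpa3*-high and 26.7 CPM (24.2–29.4) in *Cpa3*-low cells of Em-Ex, a log2 ratio of 1.24 (1.02 to 1.46). The YS-Ex values were 10.9 CPM (9.61–12.2) and, on 36 UMIs, 20.1 CPM (14.1–27.9), a log2 ratio of 0.91 (0.35 to 1.4). The Em-Ex ratio passed 2-fold as counted here but was 0.76 at a *Cpa3* limit of 80 and 0.73 without cluster 6, and the YS-Ex ratio was 1.18 as a mean over cells and 1.07 with all barcodes. With every cell thinned to 3000 UMIs, *Tap1* was seen in 3.41% and 7.12% of the *Cpa3*-high and *Cpa3*-low cells of Em-Ex and in 2.88% and 4.26% of those of YS-Ex. Without thinning the shares were 12.2%, 31.3%, 12.3% and 19.1%.

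*H2-DMa* had the largest ratio of the 6 genes in both libraries, but not without cluster 6 of the clustering given below or, in YS-Ex, after thinning, where it was 1.86 and that of *Cd74* 2.25. It was at 2.01 CPM (1.51–2.61) in *Cpa3*-high and 25.2 CPM (22.8–27.9) in *Cpa3*-low cells of Em-Ex, a log2 ratio of 3.64 (3.24 to 4.09), or 12.6-fold. YS-Ex had it at 1.58 CPM (1.13–2.16) on 40 UMIs and 11.2 CPM (6.83–17.3) on 20 UMIs, a log2 ratio of 2.84 (1.97 to 3.63). Without cluster 6 the ratio was 1.88 (1.24 to 2.50) in Em-Ex, where *Cd74* was at 2.62, and 1.18 (−0.64 to 2.40) in YS-Ex, on 5 UMIs in the *Cpa3*-low cells, where *Cd74* was at 1.65. The rise in Em-Ex was one of many cells at a low level. *H2-DMa* was found in 25.9% of the *Cpa3*-low and 2.41% of the *Cpa3*-high cells of Em-Ex, and in 7.00% and 0.682% after thinning. No cell of Em-Ex held more than 7 of its UMIs.

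*Cd74* rose from 6.65 CPM (5.72–7.69) in *Cpa3*-high to 26.9 CPM (24.4–29.7) in *Cpa3*-low cells of Em-Ex, a log2 ratio of 2.02 (1.76 to 2.28). This ratio left its interval in 9 of 14 alternatives, among them 2.75 after thinning, 2.55 as a mean over cells, 2.41 at a mitochondrial limit of 10% and 1.37 without cluster 10 of the clustering given below. In YS-Ex it was at 6.22 CPM (5.28–7.27) and, on 30 UMIs, 16.8 CPM (11.3–23.96), a log2 ratio of 1.45 (0.82 to 2.00). The YS-Ex ratio changed sign in 2 of 14 alternatives. These were without cluster 10, on 4 UMIs in *Cpa3*-low cells, and without clusters 6, 10, 11 and 12 (−1.18, on 3 UMIs). Unlike those of *H2-DMa*, the UMIs of *Cd74* were concentrated in few cells. The highest 1% of the *Cpa3*-low cells of Em-Ex held 53.1% of the *Cd74* UMIs of that group but 12.4% of the *H2-DMa* UMIs, and a single cell held up to 55 *Cd74* UMIs. The share of cells with a *Cd74* UMI was 11.5% in *Cpa3*-low and 6.36% in *Cpa3*-high cells of Em-Ex, and 6.38% and 6.06% in those of YS-Ex. After thinning it was 4.48%, 1.41%, 3.55% and 1.34% in the same order.

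**Figure D1:**
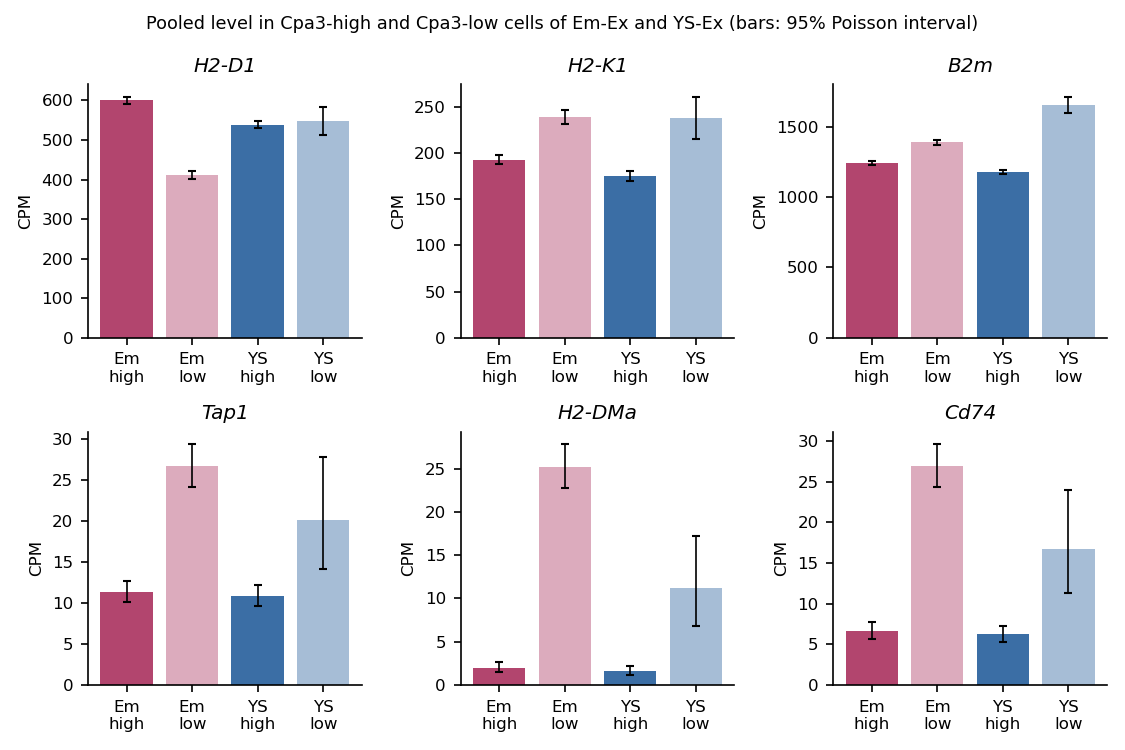
Pooled level (CPM, linear axis from 0, with 95% exact Poisson intervals) of each of the 6 genes in *Cpa3*-high and *Cpa3*-low cells of Em-Ex and YS-Ex. *H2-DMa* stood at 2.01, 25.2, 1.58 and 11.2 CPM from left to right, whereas *B2m* ranged only from 1178 to 1652 CPM.

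Counted by the rule used for all genes (2-fold or more, a counting interval away from 0 and at least 100 UMIs over both groups), 3 of the 6 genes, *Tap1*, *H2-DMa* and *Cd74*, were higher in the *Cpa3*-low cells of Em-Ex, where 14.7% of the 9778 genes with enough UMIs were. None of the 6 was lower, against 7.42% of all genes. Their median log2 ratio was 0.77, against 0.24 over all genes. In YS-Ex 5 of the 6 had enough UMIs, all but *H2-DMa*. Of these *Cd74* alone was higher in the *Cpa3*-low cells, against 6.62% of 9068 genes, and none was lower, against 2.54%. The median of the 5 was 0.49, against 0.11 over all genes.

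The 4 class I and the 2 class II genes were also summed, with *B2m* as the largest part of the class I sum. The class I sum was 2046 CPM (2029–2063) in *Cpa3*-high and 2063 CPM (2040–2086) in *Cpa3*-low cells of Em-Ex, a log2 ratio of 0.01 (−0.01 to 0.03), and −0.23 under median-of-ratios scaling. In YS-Ex it was 1902 CPM (1885–1920) and 2457 CPM (2385–2531), a log2 ratio of 0.37 (0.32 to 0.41). The class II sum rose from 8.66 CPM (7.59–9.83) to 52.2 CPM (48.6–55.9) in Em-Ex, a log2 ratio of 2.59 (2.38 to 2.81), and from 7.80 CPM (6.75–8.97) to 28.0 CPM (20.8–36.9) in YS-Ex, a log2 ratio of 1.85 (1.36 to 2.30). Class II UMIs per 1000 class I UMIs numbered 4.23 (3.71–4.81) and 25.3 (23.5–27.1) in *Cpa3*-high and *Cpa3*-low cells of Em-Ex, and 4.10 (3.55–4.72) and 11.4 (8.44–15.0) in those of YS-Ex. The class II genes were thus a small fraction of the class I genes in every group, and the *Cpa3*-high cells of both libraries had the same proportion within counting error.

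Between the libraries, the *Cpa3*-high cells differed little in any of the 6 genes. The log2 ratio of Em-Ex to YS-Ex was 0.16 for *H2-D1*, 0.14 for *H2-K1* and 0.08 for *B2m*, and for *Tap1* it was 0.06 (−0.18 to 0.30), for *H2-DMa* 0.34 (−0.27 to 0.97) and for *Cd74* 0.10 (−0.22 to 0.41). None of the 5 genes with enough UMIs passed 2-fold in either direction, where 1.64% of 9826 genes were higher in Em-Ex and 11.2% lower. The class I sum was 1.08-fold as high in Em-Ex and the class II sum 1.11-fold (log2 0.15, −0.13 to 0.43). The intervals of the 3 scarcer genes leave room for differences of up to about a doubling for *H2-DMa* and less for *Tap1* and *Cd74*.

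The *Cpa3*-low cells differed more, in both directions. *H2-DMa* was 2.26-fold higher in Em-Ex (log2 ratio 1.14, 0.53 to 1.90), where 6.45% of 8260 genes were higher in Em-Ex and 12.1% lower. Cluster 6, given below, held most of these UMIs (349 of 388 in Em-Ex, 15 of 20 in YS-Ex), and within it the *Cpa3*-low cells of Em-Ex had *H2-DMa* at 35.2 CPM (31.6–39.1) and the 18 of YS-Ex at 54.0 CPM (30.2–89.1), the lower value being that of Em-Ex, with intervals that overlap. *Cd74* was 1.60-fold higher (log2 0.66, 0.15 to 1.27), with 1.28 at a mitochondrial limit of 10% and 2.35 (1.14 to 4.41) without cluster 10. *H2-D1* and *B2m* were lower in Em-Ex, with log2 ratios of −0.42 (−0.51 to −0.32) and −0.25 (−0.31 to −0.20), but without cluster 10 these were −0.11 (−0.23 to 0.01) and 0.05 (−0.02 to 0.11). *Tap1* had a log2 ratio of 0.39 (−0.08 to 0.94). The clusters that make up the *Cpa3*-low cells differed between the libraries, as given below.

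A finer division by *Cpa3* showed that the class II genes did not follow it step by step. In Em-Ex the class II sum was 70.0 CPM (65.1–75.1) in the 564 cells under 10 *Cpa3* UMIs per 10000, and 7.32 CPM (5.01–10.3) in the 307 cells from 10 to 40, which were also called *Cpa3*-low. It lay between 7.73 and 9.49 CPM in the 3 divisions above 40. YS-Ex had the same form, with 53.3 CPM (37.9–72.9) in the 50 cells under 10, 10.4 CPM in the 91 cells from 10 to 40 and 6.45 to 9.23 CPM above. Nearly all of the class II excess of *Cpa3*-low cells therefore lay in cells under 10.

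The class I sum followed a U-shaped course. In Em-Ex it was 2229 CPM under 10, 1644 CPM from 10 to 40, 1796 CPM from 40 to 100, 2108 CPM from 100 to 200 and 2593 CPM at 200 or more. The YS-Ex sums were 2979.8, 2095, 1676, 1789 and 2203 CPM in the same order. *H2-D1* climbed with *Cpa3* along all 5 divisions of Em-Ex, from 384 to 477, 536, 618 and 738 CPM, while in YS-Ex it was 665 CPM under 10 and then 467, 453, 520.4 and 621 CPM. *B2m* had its lowest values in the middle, at 969 CPM in Em-Ex (10 to 40) and 1058 CPM in YS-Ex (40 to 100), with 1634 and 1374 CPM in the cells with the most *Cpa3* and 1553 and 2013 CPM in the cells under 10. Its highest value was thus at the high end of *Cpa3* in Em-Ex and at the low end in YS-Ex.

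**Figure D2:**
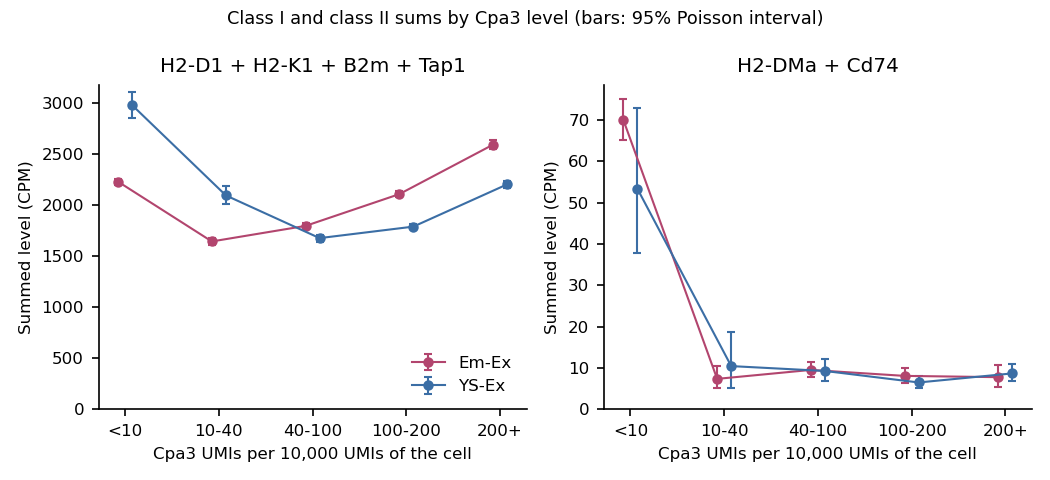
Summed level (CPM, linear axes from 0, with 95% exact Poisson intervals) of the class I genes, left, and the class II genes, right, in 5 divisions of cells by *Cpa3* UMIs per 10000 UMIs, for Em-Ex and YS-Ex. The class I sums dip in the middle divisions, and the class II sums fall from 70.0 CPM (Em-Ex) and 53.3 CPM (YS-Ex) under 10 to about 10 CPM or less in all others.

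To see which cells held the class II genes, the cells of both libraries were clustered on genes other than those of antigen presentation, so that the 6 genes and their pathway lists took no part in defining the clusters. The 12 clusters are given by number and leading genes. Cluster 6 (508 cells, 490 of them Em-Ex) was led by *Mpo*, *Prtn3* and *Flt3*, 1.57% of its cells were *Cpa3*-high, and its median depth was 20548 UMIs. Of 7 dendritic cell markers, 4 were at 3-fold or more there, but its leading genes include those of neutrophil progenitors, so it was given no name. Cluster 10 (126 cells, 108 Em-Ex) was led by *S100a9*, *S100a8*, *Spp1*, *Mmp12* and *Lyz2*, and 11 of 11 macrophage markers were at 3-fold or more over the other cells. Its leading genes mix those of neutrophils and macrophages, so it was given no name, and 53.2% of its cells were *Cpa3*-high. Cluster 9 (147 cells, 59 Em-Ex and 88 YS-Ex) was led by *Calca* and *Tnfrsf9*. Most of the other cells were *Cpa3*-high and were divided mainly by library (clusters 1 to 5 and 8) or by mast cell genes such as *Mcpt1* and *Fcer1a* (cluster 7). Values by cluster are descriptions, since the clusters were drawn from the same cells.

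At this resolution *H2-DMa* and *Cd74* were highest in different clusters. Cluster 6 had *H2-DMa* at 35.3 CPM (31.8–39.1) and cluster 10 at 23.7 CPM (16.6–32.8), and it stood at 0.70 to 3.30 CPM in clusters 1 to 5 and 7 to 9. *Cd74* was at 171 CPM (151–193) in cluster 10 but only 18.4 CPM in cluster 6, and at 20.3 CPM in cluster 9, where 1 YS-Ex cell held 23 of the 29 UMIs and the level without it was 4.24 CPM (1.56–9.23). Clusters 1 to 5, 7 and 8 had it at 3.24 to 6.89 CPM. Per *Cd74* UMI there were 1.92 *H2-DMa* UMIs in cluster 6 and 0.138 in cluster 10. At a finer and at a coarser clustering the leading genes of cluster 10 marked a cluster of 51 cells that was highest for both, with *H2-DMa* at 44.7 CPM (31.1–62.2) and *Cd74* at 326.9 CPM (288–369). The finer clustering also held a cluster of 79 cells, 86.1% of them *Cpa3*-high, with *C1qa* and *C1qb* among its leading genes. There 7 of 11 macrophage markers were at 3-fold or more, but *H2-DMa* was at 1.30 CPM and *Cd74* at 6.52 CPM.

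Clusters 11 and 12 served as a check on free RNA, which droplets take up from broken cells. Cluster 12 (25 cells, median 22250 UMIs, led by *Hbb-bs*, with all 8 erythroid markers raised) had no *Cd74* UMI, with an upper bound of 6.74 CPM, and 5 *H2-DMa* UMIs (9.13 CPM, 2.96–21.3). Cluster 11 (27 cells, led by *Actc1* and *Acta2*, median 6357 UMIs) had none of *Cd74* and 2 UMIs of *H2-DMa*. After thinning, 1 of the 25 cells of cluster 12 had *H2-DMa* (4%) and none had *Cd74*. The interval of *H2-DMa* in cluster 12 thus lay above its level of 1.27 CPM in cluster 1. Whether these few UMIs were free RNA or the cells' own was not tested.

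A second measure of free RNA is how much of a gene found in *Cpa3*-low cells is also counted in *Cpa3*-high cells. In Em-Ex the *Cpa3*-high level was 1.29% of the *Cpa3*-low level for *Mpo*, 1.23% for *Prtn3* and 0.715% for *S100a8*, genes of the other cells. It was 11.03% for *Lyz2*, 7.96% (5.89–10.6%) for *H2-DMa* and 24.7% (20.6–29.5%) for *Cd74*. In YS-Ex it was 0.244%, 0.784% and 0.112% for the same 3 genes, 1.04% for *Lyz2*, 14.2% for *H2-DMa* and 37.1% (25.0–56.8%) for *Cd74*. In Em-Ex the share of *Lyz2* thus lay above that of *H2-DMa*. However, the 63 *Cpa3*-high cells of cluster 10 in Em-Ex held 341 *Lyz2* UMIs (534 CPM), and 5 of the 55 *H2-DMa* UMIs. The shares were not taken again without them, and the part of free RNA in these low counts was not tested. In Em-Ex 18.1% of the *Cd74* UMIs of *Cpa3*-high cells lay in cluster 10, where 1 cell held 20 of 33, and in YS-Ex 15.9% lay in cluster 9, where 1 cell held 23 of 25. Without that cell, an alternative chosen after seeing the data, the *Cpa3*-high cells of Em-Ex had *Cd74* at 5.92 CPM (5.05–6.91) and those of YS-Ex at 5.31 CPM (4.45–6.29).

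The class I genes were also highest in cluster 10. *B2m* was at 3324 CPM there and 2349 CPM in cluster 9, against 743 CPM in cluster 8 and 787 CPM in cluster 4, the clusters led by cell division genes. *H2-D1* reached 1105 CPM in cluster 10 but only 340 CPM in cluster 6, lower than in every other cluster but 11 (117 CPM) and 12 (177 CPM). *H2-K1* reached 512 CPM in cluster 10, against 239 CPM in cluster 6. Cluster 6 therefore had 1.42 *H2-D1* UMIs per *H2-K1* UMI, whereas cluster 1 had 3.32 and cluster 7 had 4.03. *Tap1* stood high in both, with 35.6 CPM in cluster 10 and 31.0 CPM in cluster 6, and at 8.16 to 14.6 CPM in all others.

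**Figure D3:**
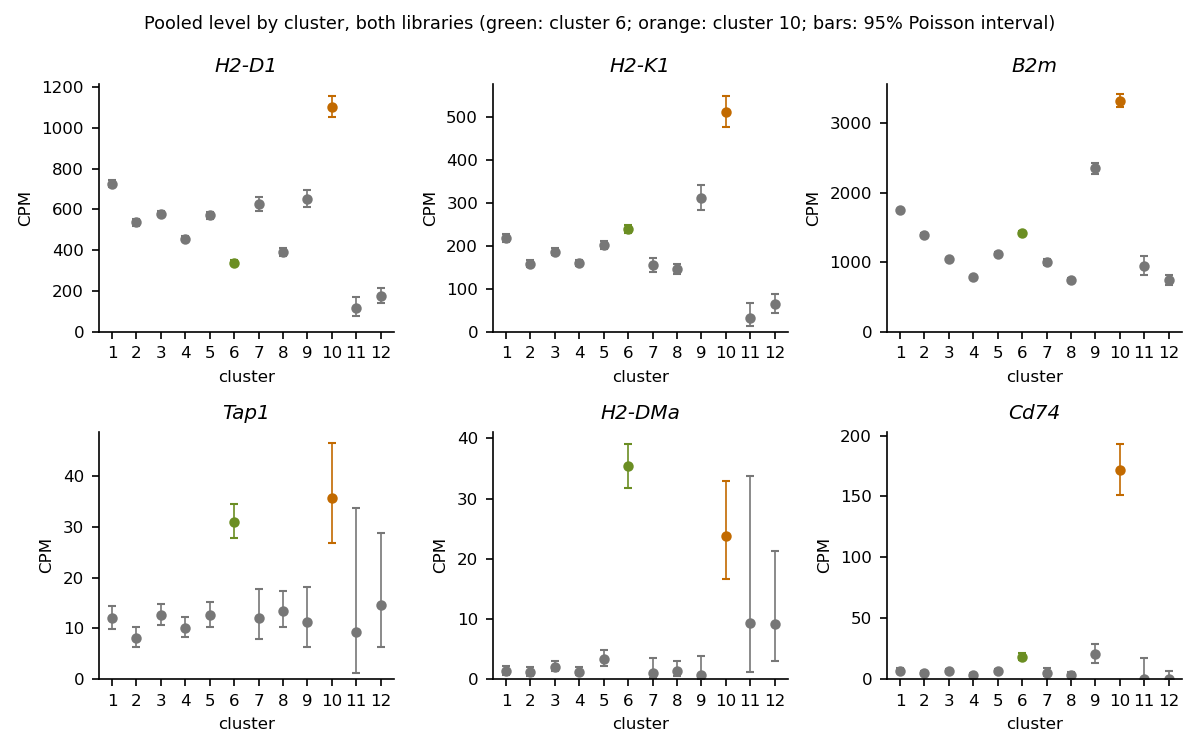
Pooled level (CPM, linear axes from 0, with 95% exact Poisson intervals) of each of the 6 genes in 12 clusters of cells from both libraries, with cluster 6 in green and cluster 10 in orange. *Cd74* stands at 171 CPM in cluster 10, *H2-DMa* at 35.3 CPM in cluster 6, and *Tap1* at 31.0 and 35.6 CPM in these clusters.

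Within cluster 10, the 6 genes separated with *Cpa3*. In Em-Ex its 45 *Cpa3*-low cells held *Cd74* at 312 CPM (271–359), or 229 CPM (193–269) without the cell with the most, *B2m* at 4348 CPM, *H2-D1* at 1344 CPM, *H2-K1* at 758 CPM, *Tap1* at 62.1 CPM and *H2-DMa* at 43.5 CPM. Its 63 *Cpa3*-high cells held *Cd74* at 51.6 CPM (35.5–72.5), or 21.3 CPM (11.3–36.4) without the 1 cell that had 20 of its 33 UMIs, *B2m* at 1782 CPM, *H2-D1* at 698 CPM, *H2-K1* at 205 CPM, *Tap1* at 14.1 CPM and *H2-DMa* at 7.82 CPM. *Lyz2*, the lysozyme of macrophages and granulocytes, moved alongside, at 5327 and 534 CPM. The 14 *Cpa3*-low cells of cluster 10 in YS-Ex had *Cd74* at 130 CPM (84.9–190), *B2m* at 5093 CPM and *H2-D1* at 1719 CPM. In the cluster of 51 cells drawn at the other resolutions *B2m* was at 4864 CPM, so the level ascribed to these cells depends on how widely they are drawn. Whether any of the *Cpa3*-high cells in cluster 10 were doublets was not tested.

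Cluster 9 differed between the libraries. *B2m* was at 1179 CPM in its Em-Ex cells and 3137 CPM in its YS-Ex cells, and *Cd74* at 5.22 and 30.5 CPM. The YS-Ex level of *Cd74* rested on 1 cell with 23 of the 26 UMIs and was 3.57 CPM (0.74–10.4) without it. *H2-Ab1*, which encodes a class II beta chain, was highest here over both libraries, at 36.4 CPM, against 13.8 CPM in cluster 10 and 3.47 CPM in cluster 6. Among these 12 clusters the one with the most *H2-Ab1* was therefore not that with the most *Cd74* or *H2-DMa*, and *H2-DMa* rested on 1 UMI in cluster 9 (0.70 CPM).

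By share of UMIs, clusters 6 and 10 held nearly all of the class II excess. In the *Cpa3*-low cells of Em-Ex, cluster 6 made up 55.3% of the cells and held 89.9% of the *H2-DMa* UMIs and 45.9% of the *Cd74* UMIs. Cluster 10 made up 5.17% of the cells and held 48.6% of the *Cd74* UMIs and 7.22% of the *H2-DMa* UMIs. In the *Cpa3*-low cells of YS-Ex, cluster 6 made up 12.8% of the cells and held 15 of the 20 *H2-DMa* UMIs, and cluster 10 made up 9.93% and held 26 of the 30 *Cd74* UMIs. Cells with many *Cd74* UMIs were rare. In Em-Ex 33 cells had 3 or more, of which 17 were in cluster 10 and 14 in cluster 6, and in YS-Ex 6 cells did.

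In alternatives chosen after seeing the data, the ratios were taken again without these clusters. Without clusters 6, 10, 11 and 12, the log2 ratio of the class II sum between *Cpa3*-low and *Cpa3*-high cells went from 2.59 to −0.09 (−0.74 to 0.46) in Em-Ex, on 28 UMIs left in the *Cpa3*-low cells. In YS-Ex it went from 1.85 to −1.14 (−3.20 to 0.07) on 4 UMIs. Both intervals hold 0, so no difference in either direction was detectable in the remaining cells at this depth. For *Cd74* the ratio went from 2.02 to 0.03 (−0.69 to 0.65) in Em-Ex, and for *Tap1* from 1.24 to 0.19. With 1 cluster left out in Em-Ex, the ratio of *Cd74* was 2.62 (2.33 to 2.91) without cluster 6 and 1.37 (1.07 to 1.69) without cluster 10. In YS-Ex, without cluster 10 alone, *Cd74* went from 1.45 to −1.14 (−3.20 to 0.08), on 4 of 30 UMIs, and the class I sum from 0.37 to −0.07. Without cluster 6 alone, *H2-DMa* went from 3.64 to 1.88 in Em-Ex. In YS-Ex the higher class I sum and *Cd74* of *Cpa3*-low cells thus rested on cluster 10, of which 14 cells were *Cpa3*-low in that library.

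**Figure D4:**
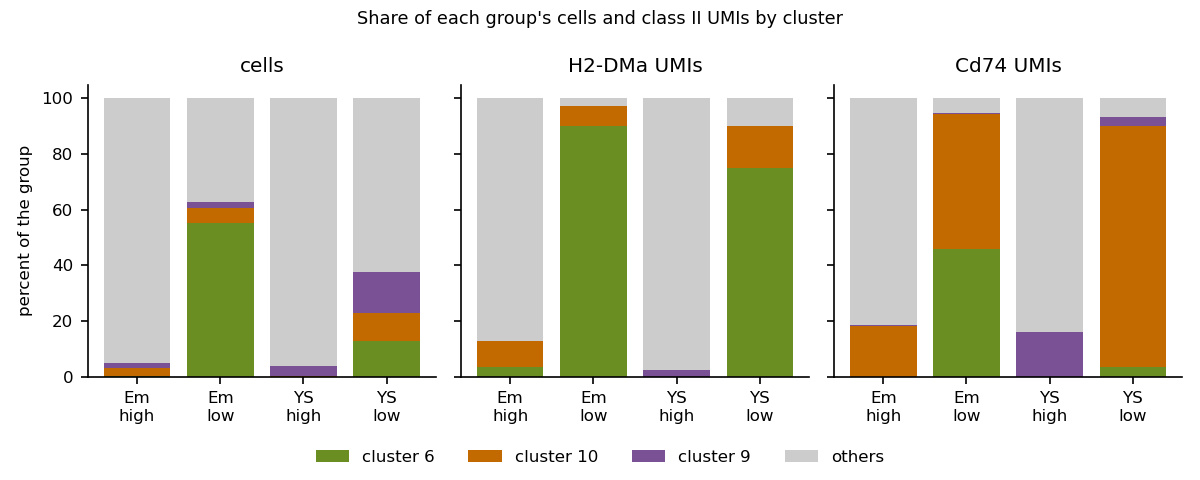
Share (percent, stacked to 100) of the cells, of the *H2-DMa* UMIs and of the *Cd74* UMIs of each group that lay in clusters 6, 10 and 9 and in all other clusters, for *Cpa3*-high and *Cpa3*-low cells of Em-Ex and YS-Ex. In the *Cpa3*-low cells of Em-Ex, cluster 6 holds 89.9% of the *H2-DMa* UMIs, and cluster 10, with 5.17% of the cells, 48.6% of the *Cd74* UMIs.

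The other genes of the pathway were counted by list, to be read against the shares of all genes past 2-fold, which in the *Cpa3*-low cells were 14.7% higher and 7.42% lower in Em-Ex and 6.62% higher and 2.54% lower in YS-Ex. Of the class II chains, 5 of 8 were in the table and *H2-Aa*, *H2-Eb1* and *H2-Eb2*, with the transactivators *Ciita* and *Nlrc5*, were not analysed here. *H2-Ab1* was at 2.15 CPM in *Cpa3*-high and 5.46 CPM in *Cpa3*-low cells of Em-Ex, and at 1.98 and 5.59 CPM (10 UMIs) in those of YS-Ex. *H2-Oa*, a chain of H2-DO, which restrains H2-DM, went the other way, at 47.6 and 18.7 CPM in Em-Ex (log2 ratio −1.34, −1.53 to −1.16) and 58.5 and 36.4 CPM in YS-Ex. *H2-DMb1*, which encodes a partner chain of *H2-DMa*, was at 9.35 and 5.14 CPM in Em-Ex, so it did not rise with *H2-DMa*, but it shared 20.4% of its terminal words with *H2-DMb2*, and the counts of both are uncertain. *H2-DMb2*, the other partner, was found in cluster 6 at 5.41 CPM and, with 2 UMIs in the *Cpa3*-high cells of Em-Ex against 58 in the *Cpa3*-low cells, fell below the UMI minimum. *H2-Ob*, the second chain of H2-DO, was at 4.15 CPM in cluster 6. Both genes were listed at 0 in YS-Ex.

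Of the class II processing genes, endosomal proteases for the most part, 4 of 9 were higher and 1 lower in the *Cpa3*-low cells of Em-Ex. Of all genes 14.7% were higher and 7.42% lower there. *Ctss*, which trims the invariant chain, was at 7.05 and 66.6 CPM, *Ctsl* at 19.1 and 100.4 CPM and *Lgmn* at 14.6 and 52.4 CPM in *Cpa3*-high and *Cpa3*-low cells. *Ctsd* was the one lower, at 1700 and 440 CPM. In YS-Ex 5 of 8 were higher, with *Ctss* at 3.41 and 181 CPM and *Ctsl* at 38.5 and 724 CPM, and none was lower, against 6.62% and 2.54% of all genes. Between the *Cpa3*-low cells of the libraries, 4 of 8, *Ctss*, *Ctsl*, *Ifi30* and *Ctsb*, were lower in Em-Ex, where 12.1% of all genes were, the opposite direction to *H2-DMa*. Macrophage markers were likewise higher in the *Cpa3*-low cells of YS-Ex (1121 against 499 CPM), and their part in this was not tested.

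On the class I side, 2 of the 5 immunoproteasome genes, whose products are exchanged into the proteasome to favor peptides that fit class I, were higher in the *Cpa3*-low cells of Em-Ex, where 14.7% of all genes were. *Psmb9*, the neighbour of *Tap1* in the genome, was at 14.2 and 76.2 CPM in *Cpa3*-high and *Cpa3*-low cells of Em-Ex (log2 ratio 2.42, 2.25 to 2.59), and *Psmb8* at 107 and 266 CPM (1.32, 1.25 to 1.39). None of 15 constitutive proteasome genes passed 2-fold, with a median of 0.33. In YS-Ex none of the 5 passed 2-fold, with *Psmb9* at 26.2 and 47.0 CPM. *Psmb8* and *Psmb9* were highest in the same clusters as *Tap1*, at 333 and 102 CPM in cluster 6 and 275 and 78.4 CPM in cluster 10. Because *Psmb9* and *Tap1* overlap on opposite strands, and whether the counting used strand is not given in the sources used here, reads in the overlap could be counted for either.

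Of the peptide loading genes, 1 of 10 was higher in the *Cpa3*-low cells of Em-Ex, a share near the 14.7% of all genes, none was lower, and the median log2 ratio was −0.27. *Tap2*, the partner of *Tap1*, was at 21.3 and 28.9 CPM in *Cpa3*-high and *Cpa3*-low cells of Em-Ex (log2 ratio 0.44) and at 22.7 and 25.7 CPM in those of YS-Ex. *Tapbp*, tapasin, which bridges the pump and the class I chains, was at 75.6 and 55.4 CPM in Em-Ex, a log2 ratio of −0.45 (−0.57 to −0.33). The subunits of the peptide pump thus differed in ratio, and *Tapbp* went in the direction of *H2-D1*. In YS-Ex 1 of 10 was higher and none lower, with a median of −0.01. The single gene past 2-fold was *Tapbpl* in both libraries, named here after its values were seen.

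Of the other class I chains, 11 of 26 were in the table and 9 had enough UMIs in Em-Ex. Of these 4 were higher in *Cpa3*-low cells, where 14.7% of all genes were, and none lower. They were *H2-Q4*, *H2-Q7*, *Cd1d1* and *Fcgrt*, all under 20 CPM in every group and named after their values were seen, and *H2-Q4* shared 33.7% of its terminal words with other genes. *H2-T23*, which encodes the nonclassical chain Qa-1, followed *H2-D1*, at 64.3 and 46.4 CPM in Em-Ex (log2 ratio −0.47, −0.60 to −0.35) and at 82.1 and 75.5 CPM in YS-Ex, with 38.1% of its terminal words shared with other genes. In YS-Ex 3 had enough UMIs and none passed 2-fold.

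Transactivators and interferon response genes were also counted. Of 11 transactivators, *Irf8*, a factor of dendritic cells and macrophages, alone passed 2-fold upward in Em-Ex, at 3.65 CPM in *Cpa3*-high and 38.1 CPM in *Cpa3*-low cells, and it was at 1.35 and 49.2 CPM in YS-Ex. Clusters 6 and 10 had it at 52.0 and 90.9 CPM. Of 28 interferon response genes, 16 were higher and 2 lower in the *Cpa3*-low cells of Em-Ex, against 14.7% and 7.42% of all genes, with a median log2 ratio of 1.09 against 0.24 over all genes. Among them *Ifitm3* was at 105 and 913 CPM, *Bst2* at 108 and 278 CPM and *Isg15* at 38.2 and 111 CPM. *Socs1*, an inhibitor of cytokine signaling, was lower, at 189 and 47.6 CPM. In YS-Ex 4 of 21 were higher and 1 lower, against 6.62% and 2.54% of all genes, with a median of 0.44. Of the costimulation genes 1 of 5 was higher and 2 lower in Em-Ex, and none of 4 passed in YS-Ex.

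**Figure D5:**
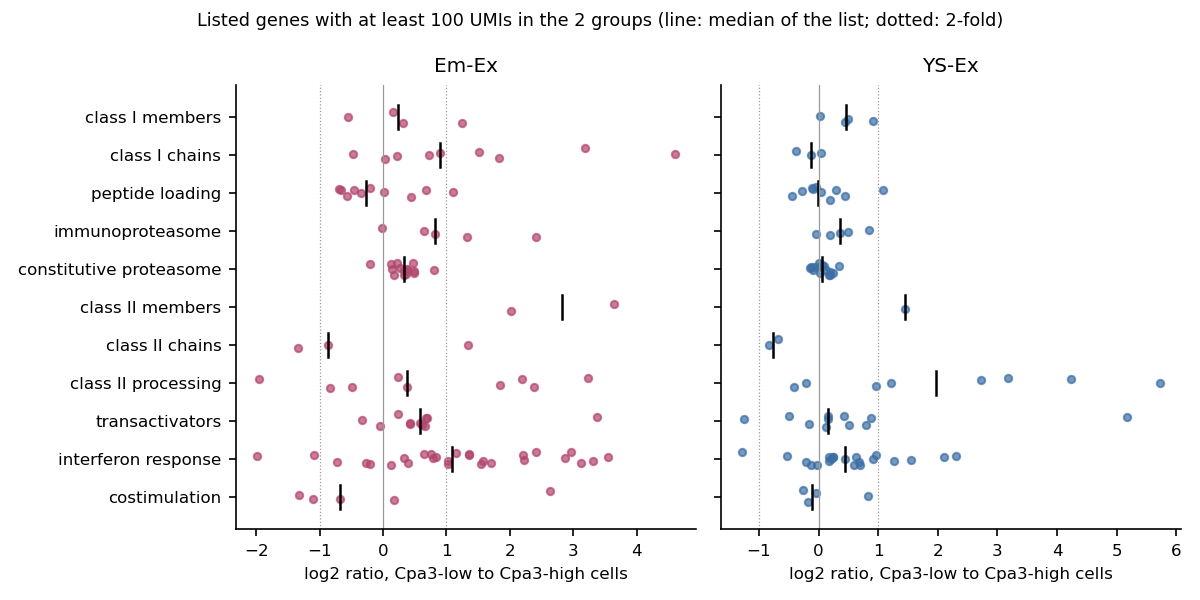
log2 ratio of *Cpa3*-low to *Cpa3*-high cells for each listed gene with at least 100 UMIs over both groups, in Em-Ex (left) and YS-Ex (right), 1 point per gene, with the median of each list as a black line and 2-fold as dotted lines. In Em-Ex the interferon response genes have a median of 1.09 and the constitutive proteasome genes lie close together around 0.33.

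Between the *Cpa3*-high cells of the libraries, few pathway genes passed 2-fold, where 1.64% of all genes were higher and 11.2% lower in Em-Ex. None of the class I chains, immunoproteasome genes, constitutive proteasome genes or class II chains did. *Ctss* was higher in Em-Ex, at 7.05 against 3.41 CPM, and *Ctsl* lower, at 19.1 against 38.5 CPM. The 15 constitutive proteasome genes were all above 0 in log2 ratio, with a median of 0.45, where the median of all genes was −0.09. *Psmb9* was lower in Em-Ex, with 14.2 against 26.2 CPM, a log2 ratio of −0.88 (−1.06 to −0.70), while its neighbour *Tap1* differed by less than counting error.

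The 6 genes did not share one pattern. Over the 15 groups of at least 20 cells made by cluster and library, the log2 levels of *H2-D1* and *H2-K1* had a Pearson correlation of 0.911, those of *H2-DMa* and *Tap1* 0.81 and those of *Cd74* and *H2-K1* 0.783. *H2-D1* had 0.0229 with *Tap1* and −0.247 with *H2-DMa*. The groups share 2 libraries and differ in depth, so these are descriptions.

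The genes most like each member, of 4699 at 20 CPM or more, differed as well. For *H2-DMa* they were *Bst2* (0.918), *Rtp4*, *Bag1*, *Daxx* and *Wfdc17* (0.86). For *Tap1* they were *Irf7* (0.83), *Pgs1*, *Ifi203*, *Lyz2* and *S100a9* (0.808). *B2m* was most like *Tapbp* (0.833), followed by *Ctsa*, *Samhd1*, *Shisa5* and *Cd68* (0.803). For *Cd74* they were *Tpd52* (0.843), *Sirpa*, *BC017643*, *Cd44* and *S100a9* (0.785). *H2-D1* was most like *Adora2b* (0.955), *Ostf1*, *Nabp1*, *Mvp* and *Sh3bgrl3* (0.944), and *H2-K1* most like *Cyba* (0.943), *Tmem189*, *Rnf130*, *Arl11* and *Ccl3* (0.902).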

How the data were processed

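Sorted cells of Em-Ex and YS-Ex were captured on a 10X Chromium chip, and the libraries were sequenced together. The authors deposited a table of UMI counts per gene and cell, made per the submitters' processing notes with bcl2fastq 2.19.1.403 and Cell Ranger 2.0.1 on mm10; the annotation is not given in the sources used here. A gene is above 0 in a library of that table only with UMIs in at least 30 barcodes, so genes listed at 0 (241 in Em-Ex, 725 in YS-Ex) may be present at low level.

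Cells with under 1000 or over 5000 genes, or over 5% of UMIs from 13 mitochondrial genes, were removed, by the limits in the study's methods. The study's own cell numbers equal all deposited barcodes, which were taken as an alternative. No doublet caller was run. Counts were summed per library and group of cells. Levels have exact Poisson and shares exact binomial 95% intervals, and ratios have intervals conditional on the summed UMIs, with a prior count of 0.5 on the log2 value. With 1 library per tissue there was no test. Shares were also taken after thinning each cell to 3000 UMIs, and no cell was shallower. Cells were clustered without the antigen presentation lists (leidenalg 0.10.2, resolution 1, with Python 3.11.15, numpy 2.4.6, scipy 1.17.1 and pandas 2.3.3), and the steps were tested on simulated data. Figures used matplotlib 3.10.9.

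The members and lists were chosen with earlier results of these data known. All 6 members were named, along with *Cpa3*, listed genes at 20 CPM or more in 1 of the 4 groups, the class II chains at any level, the first 3 markers of a list, and the 5 genes most like each member.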

Additional observations from a re-analysis of the deposited data

How the results depend on the processing

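No paired analysis was possible because there was 1 library per tissue and the labels give no replicate numbers. The log2 ratios of the 6 genes in 4 comparisons, and of the sums in all but that of *Cpa3*-low cells between libraries, were recomputed under 10 alternatives of cell filter, scaling, *Cpa3* limit and depth and under 4 that leave out clusters. The latter, and all alternatives for *Cpa3*-low cells between libraries, were chosen after seeing the data. The ratios of the other pathway genes were not recomputed. Of 336 values for single genes, 236 stayed within the counting interval, 88 left it in the same direction or from an interval that held 0, and 12 changed sign.

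The class II sum in Em-Ex (2.59) was 2.89 as a mean over cells, 2.35 under median-of-ratios scaling, 2.94 and 2.17 at *Cpa3* limits of 20 and 80, 3.0 after thinning and −0.09 (−0.74 to 0.46) without clusters 6, 10, 11 and 12. In YS-Ex (1.85) it was 2.39 and 0.76 at limits of 20 and 80, 0.79 without cluster 10 and −1.14 (−3.20 to 0.07, on 4 UMIs in *Cpa3*-low cells) without the 4 clusters. Between the *Cpa3*-high cells of the libraries (0.15) it stayed within its interval throughout.

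The class I sum in Em-Ex (0.01) was −0.05 with all barcodes, with no upper limit on genes and with the 20 most abundant genes left out, −0.23 under median-of-ratios scaling, 0.11 and −0.20 at limits of 20 and 80, 0.04 without cluster 6, −0.12 without cluster 10, 0.05 without clusters 11 and 12 and −0.33 without all 4. In YS-Ex (0.37) it was 0.49 as a mean over cells, 0.32 without the 20 genes, 0.27 under median-of-ratios scaling, 0.58 and 0.02 at limits of 20 and 80, 0.48 after thinning, 0.43 without cluster 6, −0.07 without cluster 10 and −0.09 without the 4 clusters. Between the *Cpa3*-high cells (0.11) it was 0.08 without the 20 genes, 0.20 under median-of-ratios scaling, 0.07 and 0.19 at limits of 20 and 80 and 0.07 after thinning.

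Without the 4 clusters, *B2m* in Em-Ex turned to −0.39 (−0.44 to −0.34). The other sign changes there had intervals that hold 0 and amount to lost differences. They were *H2-K1* (−0.08, −0.19 to 0.03) and, on 5 UMIs in *Cpa3*-low cells, *H2-DMa* (−0.44, −2.25 to 0.76) in Em-Ex, and in YS-Ex *B2m* (−0.02, −0.10 to 0.05), *H2-DMa* (−0.44, −6.35 to 1.55) on 1 UMI and *Cd74* (−1.18, −3.69 to 0.18) on 3. Without cluster 10 the same held in YS-Ex for *H2-K1* (−0.03, −0.21 to 0.15) and, on 4 UMIs, *Cd74* (−1.14, −3.20 to 0.08). Between the *Cpa3*-low cells of the libraries, *H2-D1* (−0.42) turned to 0.14 (0.01 to 0.28) without the 4 clusters and *B2m* (−0.25) to 0.05 (−0.02 to 0.11) without cluster 10, while *H2-DMa* (1.14) ran from 0.19 to 2.08 and *Cd74* (0.66) from 0.54 to 2.35. *B2m* in Em-Ex was also lower under median-of-ratios scaling (−0.08) and at a limit of 80 (−0.13). At clustering resolutions of 0.5 and 2 the highest cluster level rose from 171.4 to 326.9 CPM for *Cd74*, from 35.3 to 44.7 CPM for *H2-DMa*, which moved from cluster 6 to a cluster of 51 cells with the leading genes of cluster 10, and from 3324 to 4864 CPM for *B2m*. The ratios of *H2-DMa* and *Cd74* in YS-Ex rest on 60 and 187 UMIs, which limits their precision.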
